A study of Mus musculus with 10 samples.

Results

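The 7 genes described here carry bile acids across the intestinal epithelium or respond to them, and are known for high expression in the ileum: Slc10a2, Fabp6, Slc51a, Slc51b, Nr1h4, Nr0b2 and Fgf15. They were chosen by gene symbol from the 45707 rows of a gene expression table, each symbol matching 1 row. Of these 7 genes, 5 reached 10 normalized counts in 5 or more libraries and entered the test across 14301 genes. Nr0b2 and Fgf15 fell below that minimum.

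Jejunum was taken from 5 mice of each of 2 genotypes, Vil-Cre and Vil-Cre:NDI1, and each mouse gave 1 RNA-sequencing library. Vil-Cre mice carry Cre recombinase under the villin promoter, which is active in intestinal epithelial cells, and all 10 mice carried it. Vil-Cre:NDI1 mice additionally carried the yeast NADH dehydrogenase NDI1 at the ROSA26 locus behind a stop cassette that Cre removes. NDI1 passes electrons from NADH to ubiquinone and is not blocked by inhibitors of mammalian complex I. The mice were male littermates aged 8 to 12 weeks, from homozygous Vil-Cre parents crossed with heterozygous carriers of the NDI1 allele. They were fasted for 16 to 18 h and received water by gavage, and the jejunum was taken and flushed 1 h later. No library came from a drug-treated mouse. The comparison asks how far NDI1 alone changes the transcripts of the jejunum.

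The libraries held 10145705 to 12371530 reads on genes. NDI1 itself had 1002 to 2659 reads in each Vil-Cre:NDI1 library, 0 reads in 4 Vil-Cre libraries and 1 read in the fifth, so every library matched its genotype label. The enterocyte markers Vil1 (35067 to 49249 normalized counts) and Anpep (68999 to 137782) were high in every library. The colon genes Hoxb13 and Hoxd13 were at 0 in all 10 libraries. Each library is a piece of whole jejunum, so fewer cells of a type and less RNA per cell cannot be told apart. The position of each piece along the jejunum is not given in the sources used here.

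Bile acids are made in the liver, released with a meal, and largely taken back from the lumen of the distal small intestine. Slc10a2 brings them into the enterocyte across the brush border, Fabp6 binds them in the cytosol, and the heteromeric transporter formed by Slc51a and Slc51b releases them into portal blood. Nr1h4 encodes the farnesoid X receptor, a nuclear receptor that bile acids activate. Its classical intestinal targets include Fabp6, Slc51a, Slc51b, the corepressor Nr0b2 and the hormone Fgf15, which travels to the liver and lowers bile acid synthesis.

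The sequences just before the starts of Slc10a2 and Fabp6 are shown because these genes varied most between mice. RefSeq promoters (GRCm38.p6) were found for 6 of the 7 genes, Fgf15 being the exception, and the 250 bases before each start were searched on both strands. For Slc10a2 the stretch is chr8:5105352-5105537 and for Fabp6 chr11:43601563-43601812, both on the minus strand. The Slc10a2 stretch is shorter because the bases nearest its RefSeq start lie inside the GENCODE gene. Capitals mark matches to 3 motifs.
Slc10a2: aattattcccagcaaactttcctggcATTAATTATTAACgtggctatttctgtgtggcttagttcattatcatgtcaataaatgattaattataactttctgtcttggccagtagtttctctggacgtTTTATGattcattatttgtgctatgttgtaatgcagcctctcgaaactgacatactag
Fabp6: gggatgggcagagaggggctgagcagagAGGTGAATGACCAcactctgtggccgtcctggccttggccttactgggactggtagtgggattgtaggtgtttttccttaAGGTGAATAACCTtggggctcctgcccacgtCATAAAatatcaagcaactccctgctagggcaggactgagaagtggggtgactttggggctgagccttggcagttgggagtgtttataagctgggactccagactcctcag

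The first motif was the inverted repeat to which the farnesoid X receptor binds with its partner, AGGTCANTGACCT, allowing 2 mismatches. Fabp6 held 2 such matches, at bases -222 to -210 and -142 to -130 from the start, and 0.959% of 32851 promoters held any. None of the other 5 searched genes held one. The second motif, GTTAATNATTAAC, is the palindrome of hepatocyte nuclear factor 1 and was allowed 1 mismatch. It matched Slc10a2 alone among the 6 genes, at bases -224 to -212, and 0.189% of the promoters held a match. The third motif, TTTATG, is a core bound by the caudal factors Cdx1 and Cdx2. It was found without mismatch in Slc10a2, Fabp6 and Nr1h4 and in 10.8% of all promoters. None of the 3 motifs overlapped another in these stretches. These are matches of letters within 250 bases and not tests of binding.

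The uptake transporter Slc10a2 (chromosome 8, 5083219 to 5105351, minus strand, GRCm38) was low in some mice and moderate in others of both genotypes. Its normalized counts were 199, 561, 6.01, 12.1 and 561 in Vil-Cre 1 to 5 and 2.94, 20.955, 7.75, 541 and 219.5 in Vil-Cre:NDI1 1 to 5. The values rest on 3 to 578 reads. Vil-Cre 1, 2 and 5 and Vil-Cre:NDI1 4 and 5 were the 5 highest, and no mouse lay between 20.955 and 199.

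The cytosolic carrier Fabp6 (chromosome 11, 43596049 to 43601540, minus strand) followed the same division with a wider range. It measured 36.4, 325, 5.01, 0 and 1477 normalized counts in Vil-Cre 1 to 5 and 4.90, 0.911, 0.968, 772 and 201 in Vil-Cre:NDI1 1 to 5. The 5 highest mice were the 5 that were highest for Slc10a2. Only these 5 reached 10 normalized counts, and the other 5 had 0 to 5 reads. Vil-Cre 5 stood at least 487-fold above the floor of 3 reads in Vil-Cre 4, where Fabp6 had no read. Vil-Cre 1 was the lowest of the 5 in both genes, at 199 for Slc10a2 but only 36.4 for Fabp6.

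The export subunits were present at high levels in every mouse. Slc51a (chromosome 16, 32474504 to 32487879, minus strand) had 3208, 4772, 2047, 1977 and 4127 normalized counts in Vil-Cre 1 to 5 and 2133, 2434, 2240, 4202 and 4598 in Vil-Cre:NDI1 1 to 5. Its highest and lowest mice differed 2.41-fold. Again the same 5 mice were the highest, and no mouse lay between 2434 and 3208. Slc51a overlaps Pcyt1a on the opposite strand, which had 2916 to 4452 normalized counts. Whether reads were assigned by strand is not given in the sources used here.

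Slc51b (chromosome 9, 65412714 to 65422955, minus strand) measured 883, 1571, 788, 779 and 1764 normalized counts in Vil-Cre 1 to 5. The Vil-Cre:NDI1 mice had 662, 749, 717, 1248 and 1112. The 5 highest mice were once more the same, over a 2.67-fold range. Slc51b overlaps Rasl12 on the opposite strand, which reached 107 normalized counts at most.

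The receptor Nr1h4 (chromosome 10, 89454234 to 89533585, minus strand) varied little by comparison. It had 664, 821, 384, 607 and 984 normalized counts in Vil-Cre 1 to 5 and 541, 409, 545, 959 and 527 in Vil-Cre:NDI1 1 to 5. Of its 5 highest mice, 4 were among the 5 above, and Vil-Cre:NDI1 5 ranked only 8 of 10. The 2.56-fold range between highest and lowest was close to those of the export subunits.

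The targets Nr0b2 and Fgf15 were near the limit of detection. Nr0b2 (chromosome 4, 133553376 to 133556536, plus strand) had 0.934, 1.09, 11.0, 4.04 and 0 normalized counts in Vil-Cre 1 to 5 and 2.94, 1.82, 4.84, 1.96 and 0 in Vil-Cre:NDI1 1 to 5. In 7 of 10 mice it had 3 reads or fewer, so its order among mice could not be read. Fgf15 (chromosome 7, 144896531 to 144900953, plus strand) was read only in those 5 mice. It had 4, 27 and 64 reads in Vil-Cre 1, 2 and 5 and 3 and 4 reads in Vil-Cre:NDI1 4 and 5. A count of 0 allows up to 3 reads per library, or 2.73 to 3.52 normalized counts, so the 3 or 4 reads of 3 mice were at or just above what a library at 0 allows. At 27 and 64 reads, Vil-Cre 2 and 5 were above that floor. Antisense genes overlap Fgf15, and the one found in the table reached 7.66 normalized counts.

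**Figure D1:**
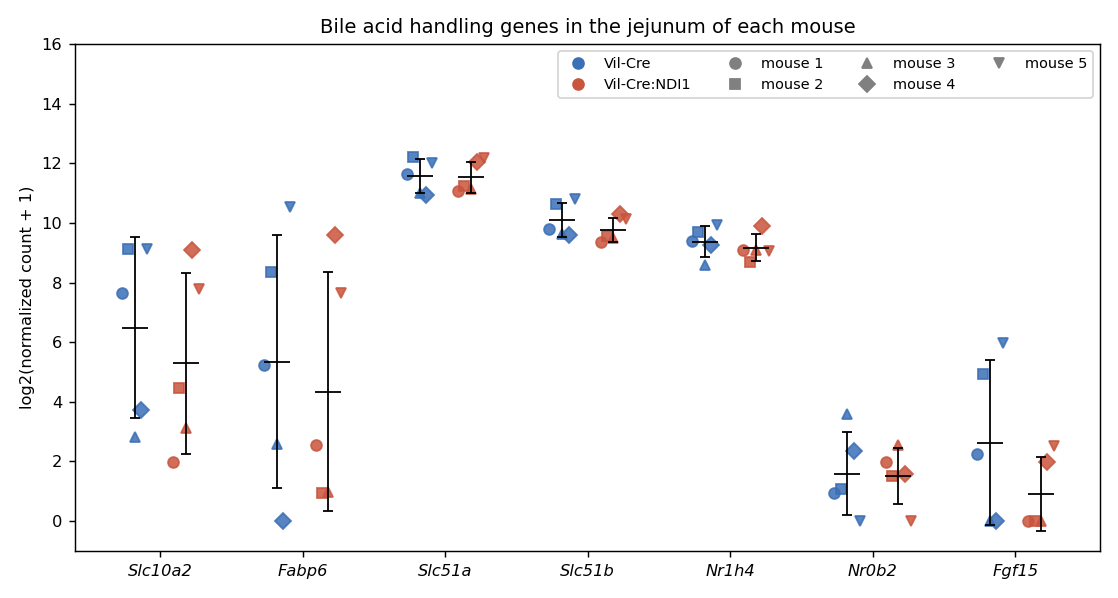
Level of each gene in each mouse, as log2 of the normalized count plus 1. Points are mice (colour for genotype, shape for mouse number), and bars show the mean and SD of 5 mice. Slc10a2 and Fabp6 spread over most of the axis in both genotypes, while Slc51a, Slc51b and Nr1h4 stay within 2.67-fold.

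Per kilobase of exon, the export subunits led the order of levels. The medians over 10 mice, in normalized counts per kilobase, were 1179 for Slc51b, 882 for Slc51a, 250.1 for Nr1h4, 43.3 for Fabp6, 26.5 for Slc10a2, 1.67 for Nr0b2 and 0.480 for Fgf15. Slc51b was above Slc51a in 10 of 10 mice, and Slc51a above Nr1h4 in 10 of 10. From Nr1h4 downward neighbouring genes in this order changed places between mice, with Nr1h4 above Fabp6 in 6 of 10 and Fabp6 above Slc10a2 in 8 of 10. Slc51a and Nr1h4 were the one neighbouring pair whose ranges did not overlap. Fabp6 is the clearest case of a level that depended on the mouse, since its level per kilobase ran from 0 to 3084, above the highest Slc51b value of 2488. Among all tested genes, the mean level per kilobase was at percentile 97.1 for Slc51b, 95.8 for Slc51a, 93.1 for Fabp6, 86.4 for Nr1h4 and 53.3 for Slc10a2.

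NDI1 expression was not accompanied by a detectable change in any of the 7 genes. The two-sided limma test on log2(normalized count + 1), with Benjamini-Hochberg adjustment across all 14301 genes, called 0 of the 5 tested genes. It called 1 of all genes (0.00699%), which was NDI1. None of the 5 had an unadjusted p under 0.05, against 605 (4.23%) of the mouse genes tested. DESeq2 on the recovered reads called 31 of 16976 genes (0.183%) and edgeR called 1 of 14301 (0.00699%), with 0 of the 6 genes to which DESeq2 gave an adjusted p, which leaves out Nr0b2, and 0 of the 5 that edgeR tested. The genotypes overlapped for every one of the 7 genes, a description only, since the share among all tested genes was not computed.

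For Slc10a2 the mean was 268 ± 279 normalized counts (SD, n = 5) in Vil-Cre and 158 ± 232 with NDI1. The log2 fold change was -1.20 ± 1.61 (SE), with a 95% interval of -4.73 to 2.33 and a limma adjusted p of 0.998. Fabp6 had 369 ± 634 normalized counts in Vil-Cre and 196 ± 333 with NDI1. Its log2 fold change was -0.99 ± 2.20, with an interval of -5.81 to 3.82. For both genes the interval holds changes of more than 4-fold in either direction, so 5 mice per genotype set no narrow bound on either gene. Without Vil-Cre 5 the Fabp6 value changed sign, to 0.30.

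The export subunits and the receptor were measured far more tightly. Slc51a had 3226 ± 1240 and 3121 ± 1181 normalized counts, with a log2 fold change of -0.037 ± 0.30 and an interval of -0.69 to 0.62. Its sign changed without Vil-Cre 2 or 5 or Vil-Cre:NDI1 1, 2 or 3 (range over single libraries left out -0.20 to 0.13). Slc51b had 1157 ± 473 and 897 ± 264, with a log2 fold change of -0.32 ± 0.27 and an interval of -0.91 to 0.27. Nr1h4 had 692 ± 226 and 596 ± 210, with a log2 fold change of -0.21 ± 0.26 and an interval of -0.78 to 0.37. The adjusted p was 0.998 for each of these 3 genes. Two-sided exact permutation tests over all assignments of mice gave p = 0.532 for Slc10a2, 0.690 for Fabp6, 0.944 for Slc51a, 0.325 for Slc51b and 0.492 for Nr1h4, where the smallest possible value is 0.00794.

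For the genes below the minimum, the exact permutation test was the main test. Fgf15 averaged 19.1 ± 27.1 normalized counts in Vil-Cre and 1.53 ± 2.18 in Vil-Cre:NDI1 mice. The difference of means on the log2(value + 1) scale was -1.73 (exact p = 0.286), and it was -0.90 without Vil-Cre 5. DESeq2 on the recovered reads, whose scale adds no pseudocount, gave a log2 fold change of -3.66 ± 2.17 (SE; unadjusted p = 0.0922, adjusted p = 0.842), the smallest p of the 7 genes with this tool. Nr0b2 averaged 3.42 ± 4.51 and 2.31 ± 1.77, a log2 difference of -0.071 (exact p = 0.944). Its sign changed without Vil-Cre 3, Vil-Cre 4 or Vil-Cre:NDI1 5 (range -0.47 to 0.43).

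**Figure D2:**
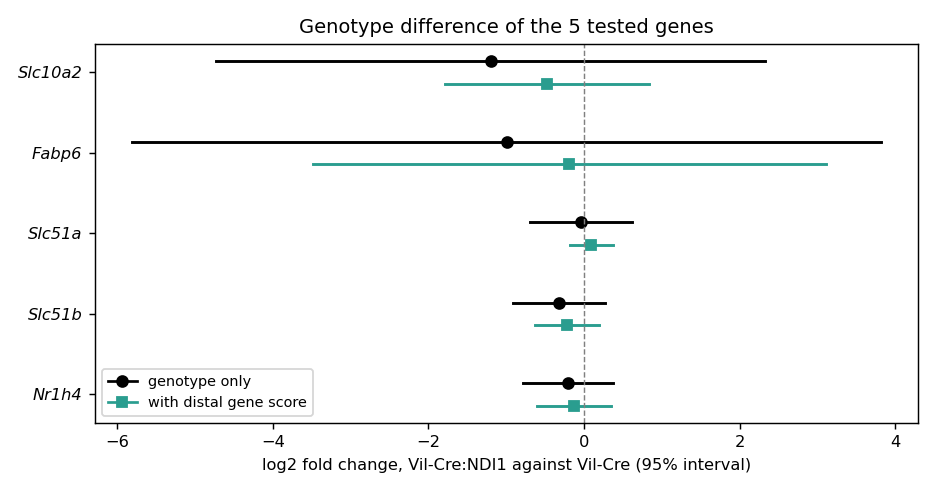
Log2 fold change between genotypes with its 95% interval for the 5 tested genes, from limma with genotype alone (black) and with a score of 15 distal intestinal genes as a covariate (green). Every interval includes 0, and those of Slc10a2 and Fabp6 are the widest, reaching with genotype alone from -4.73 to 2.33 and from -5.81 to 3.82. The score was chosen after seeing the data, and its intervals are a description.

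Both subunits of the exporter are needed for transport, so their ratio was taken in each mouse. The ratio of Slc51a to Slc51b per kilobase was 0.805, 0.673, 0.576, 0.563 and 0.519 in Vil-Cre 1 to 5 and 0.715, 0.721, 0.693, 0.747 and 0.917 in Vil-Cre:NDI1 1 to 5. The genotypes overlapped through Vil-Cre 1 alone. The means were 0.627 ± 0.115 and 0.758 ± 0.091, a difference of 0.28 on the log2 scale (two-sided exact permutation p = 0.0873). Without Vil-Cre 1 the difference was 0.38, with an exact p of 0.00794, the smallest possible for 4 against 5 mice. That choice removes the only mouse through which the genotypes overlapped, so this smallest p follows from it. With any other single mouse left out the exact p was 0.0873 to 0.167. Without Vil-Cre:NDI1 5 the difference was 0.21 (exact p = 0.143). The part of the overlap of Slc51a with Pcyt1a in this ratio was not tested. The labels give no reason to leave out Vil-Cre 1.

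Slc10a2 and Fabp6 varied widely between mice of one genotype. The within-genotype SD on the log2 scale was 4.13 for Fabp6 and 3.03 for Slc10a2, at percentiles 99.98 and 99.9 of all tested genes, whose median SD was 0.29. Among genes of similar mean level these percentiles were 99.98 and 99.9. Slc51a (0.55), Slc51b (0.50) and Nr1h4 (0.48) were above the median but below the 90th percentile of 0.76. Among genes of similar level they stood at percentiles 95.3, 94.4 and 93.4.

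Members of the group also varied together across mice. For Slc10a2, Slc51a and Fgf15 the mice fell into separate clusters, with a largest gap of 0.445, 0.313 and 0.405 of the range, so no relation was tested for them. Fabp6 stayed under the limit of 0.3, but its largest gap (0.251) also split the mice 5 and 5, into the same sets as Slc10a2. The p-values of its pairs therefore cannot separate a relation within these sets from a difference between them. The lower set held only 0 to 5 reads of Fabp6, so r and rho of its pairs rest partly on few reads. Nr0b2 was left out because its mean was under 10 normalized counts. Of the 3 pairs among Fabp6, Slc51b and Nr1h4, Fabp6 and Slc51b had r = 0.916 (permutation p = 0.00032, adjusted 0.00096) and Spearman's rho = 0.867 (permutation p = 0.00214, adjusted 0.00642) over n = 10 mice. Leaving out the 2 mice farthest from the median Fabp6 level gave r = 0.872, and removing genotype means gave 0.934. Slc51b and Nr1h4 had r = 0.786 (permutation p = 0.00862, adjusted 0.0117) and rho = 0.648 (permutation p = 0.0485, adjusted 0.0596), with r = 0.613 without 2 mice. Fabp6 and Nr1h4 had r = 0.771 (permutation p and adjusted p = 0.0117) and rho = 0.624 (permutation p and adjusted p = 0.0596). Without 2 mice r fell to 0.525, so that relation depended in part on those mice. With 1 mouse left out r was 0.691 to 0.851.

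As a description with no test, each tested gene was also ranked by the Pearson r of its log2 levels with all other tested genes over the 10 mice. By this measure Slc51a ranked 14 of 14300 genes by likeness to Slc10a2, with Fabp6 at 76 and Slc51b at 80. By likeness to Slc51a, Slc10a2 ranked 8, Fabp6 37 and its partner subunit Slc51b 103. By likeness to Fabp6, Slc51a ranked 10, Slc51b 15 and Slc10a2 26. By likeness to Slc51b, Fabp6 ranked 12, Slc10a2 22 and Slc51a 40. Nr1h4 was less alike, at ranks 214 to 814 against the other 4. The genes outside this group with the most similar pattern to Slc10a2 were Mgat4c (r = 0.985, 47.1 to 1213 normalized counts), Map3k6 (0.974) and Ttyh3 (0.969). For Fabp6 they were Tmsb4x (0.962), Saa1 (0.955) and Zc3h7a (0.952), and for Slc51a Mrfap1 (0.973), Srxn1 (0.961) and Fam102b (0.953). For Slc51b they were Zfp467 (0.974), Fam83e (0.953) and Misp (0.952), and for Nr1h4 Qsox1 (0.947), Epb4.1l2 (0.944) and Cotl1 (0.942).

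The order of mice by Slc10a2 resembled their order by other genes whose level depends on position along the small intestine. A list of 15 other genes of the distal small intestine had a median rank correlation (rho) with Slc10a2 of 0.855, with 15 of 15 above 0 and 11 of 15 at 0.8 or more. Across all tested genes the median was 0.0061 and 2.19% reached 0.8. A list of proximal genes had a median of -0.836, and 7 of its 12 tested genes were at -0.8 or less, against 2.72% of all genes. These correlations describe 10 mice and carry no p, since the same mice fall into clusters for Slc10a2. Both lists were chosen with earlier results of these data known, so their shares are a description and not independent evidence.

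Among the distal genes with the highest level per kilobase, the peptidase genes Naaladl1 (9160 to 23177 normalized counts, rho = 0.855) and Mep1a (1645 to 6784, rho = 0.891) followed Slc10a2 in rank. Dpep1 had rho = 0.733, and Clec2h, the most abundant of the list, had rho = 0.152. Of the most abundant proximal genes, the apolipoprotein Apoa4 (48578 to 175027, rho = -0.903), the retinol carrier Rbp2 (rho = -0.818), the fatty acid carrier Fabp1 (3735 to 17987, rho = -0.782) and Apoa1 (rho = -0.612) ran the opposite way. Plb1, Onecut2, Tmigd1, Gata4, Cybrd1 and Slc40a1 were chosen after their values were seen. The brush-border phospholipase Plb1 had 9797, 12888, 153, 537 and 8566 normalized counts in Vil-Cre 1 to 5 and 5.88, 392, 156, 14619 and 17101 in Vil-Cre:NDI1 1 to 5. Its 5 highest mice were those of Slc10a2. Onecut2, a transcription factor of the proximal gut, was lowest in the same 5 mice (20.6 to 744 over all mice, rho = -0.927). Gata4, which marks the proximal small intestine, covered a narrow range of 703 to 1443 (rho = -0.915). Of the proximal genes, 2 had rho above 0, Cybrd1 (13.7 to 37.2, rho = 0.867) and the iron exporter Slc40a1 (15.5 to 95.3, rho = 0.115).

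**Figure D3:**
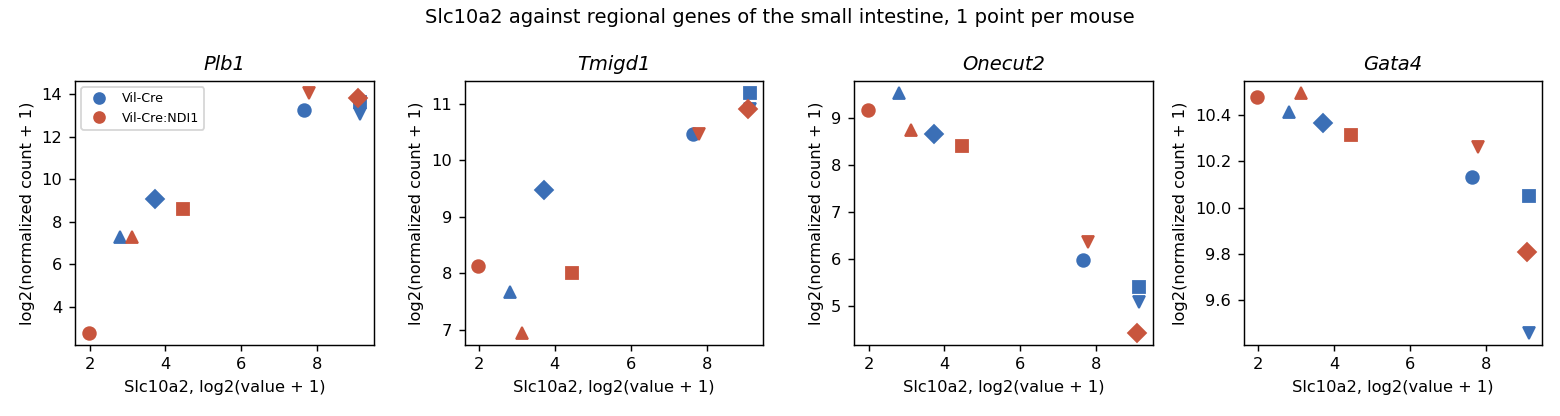
Log2 level of 2 distal genes (Plb1, Tmigd1) and 2 proximal genes (Onecut2, Gata4) against the log2 level of Slc10a2, with 1 point per mouse. The 5 mice with high Slc10a2, from both genotypes, lie apart at high Plb1 (8566 to 17101 normalized counts) and low Onecut2.

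With the mean standardised level of the 15 distal genes as a covariate, an analysis chosen after seeing the data, the standard error of the Slc10a2 genotype difference was 0.59 in place of 1.61. The log2 fold change was then -0.48, with a 95% interval of -1.78 to 0.83 and a limma adjusted p of 0.962. Of the 15 score genes, 11 had rho of 0.8 or more with Slc10a2 in these mice. The smaller standard error of Slc10a2 therefore follows in part from the choice of score. Fabp6 was at -0.19 ± 1.49 (SE), Slc51a at 0.094 ± 0.13, Slc51b at -0.22 ± 0.19 and Nr1h4 at -0.13 ± 0.21, with adjusted p from 0.940 to 0.994. None of the 5 genes was called with the covariate. The distal score ranged from -1.14 to 1.08 SD units in Vil-Cre and from -1.10 to 0.91 with NDI1, so both genotypes covered nearly the same range. Within it they were not evenly placed, with a median of 0.34 in Vil-Cre and -0.42 with NDI1.

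No other gene of bile acid biology was called between genotypes. Across 7 lists with 95 genes, regional genes included, 72 were tested, 0 passed the limma adjusted threshold and 4 had an unadjusted p under 0.05. DESeq2 had a p for 91 of the 95 and edgeR for 72, and both called 0, with 8 and 4 at an unadjusted p under 0.05. Over all genes with a p, 4.81% were under 0.05 with DESeq2 and 4.66% with edgeR. The median log2 fold change was -0.0031 for 19 tested sensors, partners and regulators, 0.22 for 9 transporters and binding proteins, 0.16 for 8 genes of gut hydroxylation and conjugation, and 0.11 for 9 genes of bile acid synthesis. The median over all tested genes was 0.0052. For 15 distal genes it was -0.13 and for 12 proximal genes 0.32.

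Of the 19 tested sensors, partners and regulators, 1 had rho of 0.8 or more with Slc10a2 across mice and 2 had -0.8 or less. Among 9 transporters and binding proteins these counts were 1 and 0. Among 8 genes of hydroxylation and conjugation they were 0 and 0, and among 9 genes of synthesis 0 and 1. Over all tested genes the shares were 2.19% and 2.72%. The regulator Maf (5813 to 9121 normalized counts) had rho = 0.455. The nuclear receptor Hnf4a (6629 to 10889 normalized counts) had rho = 0.818, while the xenobiotic and bile acid sensors Nr1i2 (the pregnane X receptor, 1719 to 2835) and Vdr (2702 to 4447) had rho = -0.903 and -0.636. The fatty acid carrier Fabp2 had rho = 0.855. All 4 of the most abundant hydroxylation and conjugation genes were ordered against Slc10a2, at rho = -0.588 for Cyp3a13, -0.721 for Cyp3a11, -0.745 for Ugt1a1 and -0.636 for Cyp3a25. Over all 8 tested genes of that list the median rho was -0.455, and 2 of them were above 0. The efflux pumps Abcb1a (rho = 0.467) and Abcc2 (rho = -0.455) followed Slc10a2 less closely. Cyp7a1, the rate-limiting enzyme of bile acid synthesis in the liver, had at most 0.934 normalized counts, equal to 1 read.

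**Figure D4:**
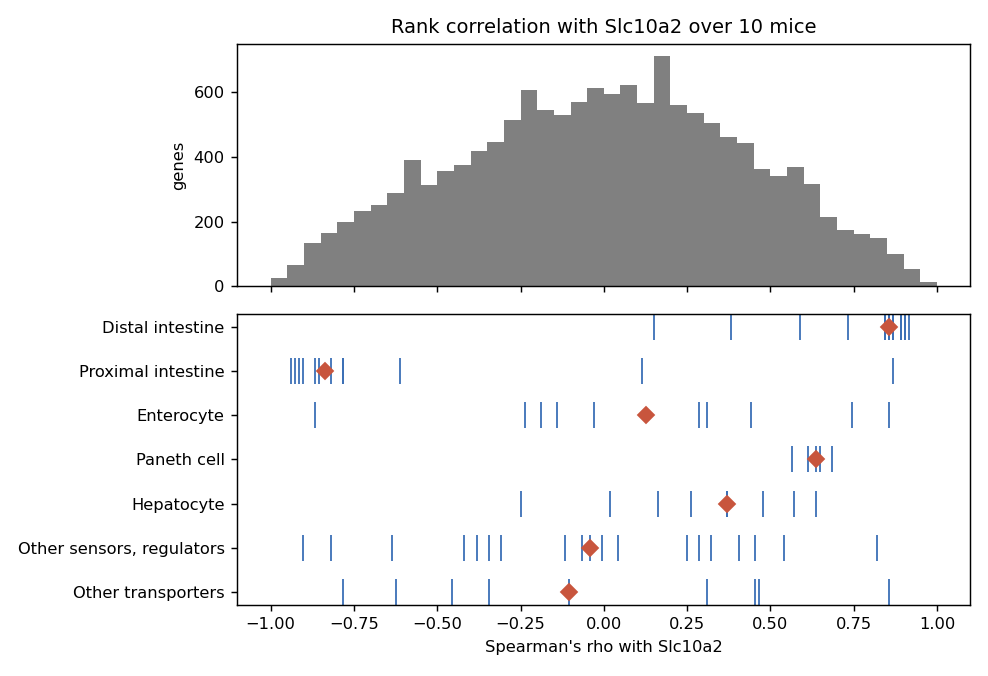
Spearman's rho with Slc10a2 over 10 mice. The upper panel counts all tested genes and the lower panel marks the tested genes of 7 lists (blue bars) and their medians (red diamonds). Distal genes gather near 0.855 and proximal genes near -0.836, while other sensors and regulators are spread around -0.042.

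Markers of other cells in the tissue were compared in the same way. The 9 hepatocyte markers tested had a median rho of 0.370 with Slc10a2, 8 of 9 above 0, and 3 of 9 had an unadjusted p under 0.05 between genotypes, with a median log2 fold change of -1.17. Their summed level was 3624 to 6248 normalized counts in Vil-Cre and 2959 to 5324 in Vil-Cre:NDI1 mice, most of it from Cps1 (2527 to 4856), which enterocytes also express. Alb, the serum albumin made in the liver, ranged from 15.2 to 763 in Vil-Cre and from 0.980 to 47.0 with NDI1. For Alb, limma gave a log2 difference of -3.14 ± 1.13 (SE) and an adjusted p of 0.998. Tat (6.07 to 86.0 against 2.90 to 14.7) and Ttr (29.3 to 82.2 against 16.4 to 31.4) were also lower with NDI1, at -2.20 and -1.03. The genotypes overlapped for all 3. Of the 9 markers, only Cps1 was above 0 (0.14), and 0 were called. No hepatocyte marker was at 0 in every library. The 5 Paneth cell markers all had rho above 0 with Slc10a2 (0.564 to 0.685), with sums of 34577 to 121947 and 39697 to 127068. The 10 enterocyte markers had a median rho of 0.127, with sums of 302546 to 428141 and 359753 to 561744. Of the pancreatic acinar markers, 3 of 7 were at 0 in every library (Cpa1, Pnlip and Amy2b). The remaining marker lists had median rho from -0.655 for enteroendocrine cells to 0.527 for goblet cells. Members of both lists went both ways. The 6 enteroendocrine markers had rho from -0.867 to 0.345, with 2 above 0. The 5 goblet cell markers had rho from -0.055 to 0.709, with 4 above 0. The part of position along the gut or of other cell types in the levels of the 7 genes was not tested.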

How the data were processed

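RNA was sequenced single-end for 100 cycles. The authors trimmed reads with trimGalore! 0.6.7, aligned them with STAR 2.6.1d to GRCm38 with NDI1 added, assigned them to genes with Salmon 1.10.1 (nf-core/rnaseq 3.12.0) and divided the counts by DESeq2 1.46.0 size factors. The deposited values are thus a signal, normalized counts per gene. All non-zero values were whole multiples, within 0.001 read, of each library's smallest value, which was taken as 1 read. In Vil-Cre 3 and 4 this value lies so near 1 that rounding cannot be told apart from whole reads. Replicates differed by more than sampling noise, and no library was a duplicate.

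Values of at least 10 in at least 5 libraries were tested with limma 3.58.1 (R 4.3.3) on log2(value + 1), with a variance trend, Benjamini-Hochberg adjustment and a threshold of 0.05. Fold changes on this scale understate those of low genes. limma was checked on simulated data. DESeq2 1.42.0 and edgeR 4.0.16 on recovered reads were alternatives. A single value was tested by exact permutation, and correlations by 100000 permutations. A gene whose largest gap between neighbouring mice exceeded 0.3 of its range was given no tested correlation, a rule chosen after seeing the data. The r and rho printed for such genes are descriptions without a p. A count of 0 was given a floor of 3 reads, and floors cover counting error only. Exon lengths came from GENCODE M21, which held 45143 of 45707 gene identifiers. Promoters came from RefSeq.

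The 7 genes and the lists were chosen with earlier results of these data known. All 7 genes were named, with up to 4 genes per list by level per kilobase and the 3 genes most like each member. Exceptions are stated.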

Additional observations from a re-analysis of the deposited data

Results flagged for a closer look

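In 4 cases 1 mouse lay far from the other 4 of its genotype by Dixon's 95% criterion, out of 16 groups examined, of which chance alone would mark about 1 in 20. Fabp6 in Vil-Cre 5 was 1477 normalized counts, and the other Vil-Cre mice had 0 to 325. Fabp6 in Vil-Cre:NDI1 4 was 772, and the other Vil-Cre:NDI1 mice had 0.911 to 201. Nr1h4 in Vil-Cre:NDI1 4 was 959, and the others of that genotype had 409 to 545. The ratio of Slc51a to Slc51b per kilobase in Vil-Cre:NDI1 5 was 0.917, and the others had 0.693 to 0.747. Fabp6 is compared on a linear scale here, on which its high mice weigh most.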

How the results depend on the processing

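No tested bile acid handling or pathway gene was called under the 22 other settings. Slc10a2, Slc51a, Slc51b and Nr1h4 were tested in all 22 and Fabp6 in 21, but Fgf15 only without the filter and by DESeq2, and Nr0b2 only without the filter. Settings that cannot alter a mean difference (the filters, no variance trend, the replicate block) gave 21 of the recomputed genotype differences. Of the other 118, 107 kept their direction and 11 reversed, none past the threshold. For Fabp6 this happened without Vil-Cre 5 (leave-one-out range -2.33 to 0.30). For Slc51a it happened with the distal gene score as covariate (0.094) and in 5 leave-one-out fits (range -0.20 to 0.13). For Nr0b2 it happened with a pseudocount of 0.1 (0.012) and in 3 leave-one-out tests (range -0.47 to 0.43). The leave-one-out ranges of the others were -2.15 to -0.38 for Slc10a2, -0.45 to -0.15 for Slc51b, -0.40 to -0.063 for Nr1h4 and -2.39 to -0.90 for Fgf15, which DESeq2 put at -3.66. Across all genes, limma called 1 gene, and 2 with a minimum of 50, 2 with array weights, 3 with the distal gene score, and 1 to 3 with 1 library left out (2 without Vil-Cre:NDI1 1 and 3 without Vil-Cre:NDI1 5), while DESeq2 called 31. The cause was not tested. The Slc51a to Slc51b difference was 0.21 to 0.38 with 1 mouse left out and passed 0.05 only without Vil-Cre 1 (0.38). Pearson's r of the 3 relations stayed at an unadjusted p under 0.05 with another pseudocount, with equal totals, with genotype means removed and with 1 mouse left out, with r from 0.888 to 0.933 for Fabp6 and Slc51b in the last case. These settings keep the division of mice seen for Fabp6, so they cannot separate its relations from that division. Spearman's rho was not recomputed.

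Same-numbered mice did not deviate together (correlations -0.116 to 0.136), so the numbers were not taken to pair mice. With the replicate block, limma called 1 gene and 0 of the 5 tested genes, whose mean differences it cannot alter (Slc10a2 -1.20). Recovered reads in Vil-Cre 3 and 4 could be rounded values. At 5 mice per genotype, the width of the intervals limits Slc10a2 and Fabp6, and Nr0b2 and Fgf15 rest on few reads.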
